A study of Mus musculus with 16 samples.

Results

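The peak lists of H3K18la were set against those of H3K27me3, which are 8 of the 16 CUT&Tag libraries of macrophages recruited to injured muscle. All 4 H3K18la lists and all 4 H3K27me3 lists were taken, and the choice used the antibody label and no measured value. The cells came from C57BL6J wild type males of 8 to 12 weeks whose femoral artery had been ligated, and were sorted from the calf muscle of the ischemic limb as CD45+CD11b+F4/80+CD64+ cells. Each mark had 2 libraries at 2 days post injury (dpi) and 2 at 4 dpi. All 8 libraries therefore share the injury, the strain and the sort, and neither an uninjured muscle nor a library without a mark-specific antibody was analysed here. The labels do not say whether replicates came from separate mice, while the study calls them biological replicates. If they were not from separate mice, the p-values measure only the spread between these samples. The sort could not be checked against marker genes, because no gene annotation of the files' genome build was at hand.

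H3K18la is the lactylation of lysine 18 of histone H3, a modification fed by lactate that is found at active promoters and enhancers. H3K27me3 is the trimethylation of lysine 27, laid down by the Polycomb repressive complex PRC2 over silenced genes, often in broad domains that cover developmental regulators. In CUT&Tag an antibody directs a transposase to the mark, and a peak is a stretch where the released fragments pile up. The marks sit on separate lysines of the same histone tail. A peak list from many cells cannot tell both marks on 1 nucleosome apart from different cells that carry 1 mark each.

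The H3K18la lists held 27578 and 15190 peaks at 2 dpi and 15511 and 17578 at 4 dpi, against 12225 and 12060 peaks at 2 dpi and 14791 and 14836 at 4 dpi for H3K27me3. The H3K18la list of 2 dpi replicate 1 was the longest, and several values below are also given without it. H3K18la peaks were short, with median widths of 1293, 1356, 1359 and 1489 bp, whereas H3K27me3 peaks spanned 2924, 3477, 3602 and 3788 bp. The longest single peak measured 20.7 to 23.3 kb in the H3K18la lists and 92.0 to 183 kb in the H3K27me3 lists. H3K18la therefore covered fewer bases, 25.3 to 46.0 Mb or 0.953 to 1.73% of the span from the first to the last peak of every chromosome. H3K27me3 covered 52.1 to 80.9 Mb, or 1.96 to 3.05% of that span. Sequencing depth is unknown, and a longer list can reflect depth as well as more marked places.

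First, the bases shared by the 2 marks were measured. The Jaccard index, the bases in both lists divided by the bases in either, averaged 0.0115 ± 0.0035 between H3K18la and H3K27me3 (SD over 4 H3K18la libraries, each the mean of its 4 pairs). Over the 16 pairs it lay between 0.0065 and 0.0189. Pairs within H3K18la gave 0.414 to 0.517 and pairs within H3K27me3 0.531 to 0.655, so that every pair within a mark was above every pair across the marks. The 4 highest of the 16 values, 0.0128 to 0.0189, were the 4 pairs of H3K18la 2 dpi replicate 1. Without that library the mean was 0.0098. Pairs from the same time point averaged 0.0113 ± 0.0030 and pairs from different time points 0.0117 ± 0.0043 (SD, n = 8 pairs each). Every library enters pairs of both classes, so these SDs do not measure the error of the difference, which was not tested.

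**Figure D1:**
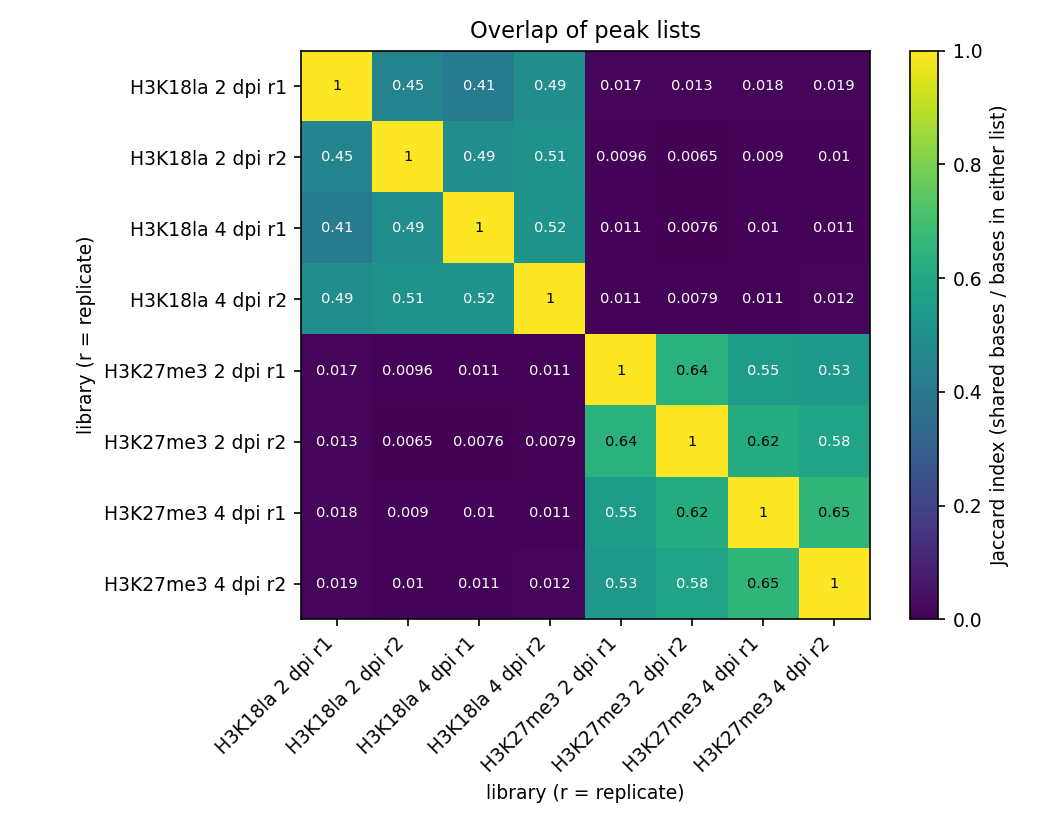
Jaccard index of every pair of the 8 lists, with H3K18la libraries first and H3K27me3 libraries after them on both axes (r = replicate). The 2 blocks within a mark reach 0.414 to 0.655, and the 16 pairs across the marks stay at or under 0.0189.

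Counted by peaks, 4.62% ± 0.52 of H3K18la peaks met an H3K27me3 peak by at least 1 bp (SD, n = 4 libraries), with 5.34%, 4.20%, 4.65% and 4.29% in the 2 dpi and 4 dpi libraries in order. Of the H3K27me3 peaks, 5.94% ± 0.79 met an H3K18la peak, with 6.49%, 4.78%, 6.10% and 6.40% in the same order. The second value leaned on the longest H3K18la list, and without it was 4.82%. The H3K27me3 list mattered too. For every H3K18la library, the share was lowest against H3K27me3 2 dpi replicate 2, at 2.88 to 4.00%, and highest against H3K27me3 4 dpi replicate 2, at 5.08 to 6.37%. H3K27me3 4 dpi replicate 2 was also the list that covered the most bases of the 4. The list with the lowest shares did not cover the fewest, at 61.0 Mb against 52.1 Mb in H3K27me3 2 dpi replicate 1.

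In bases, 2.20 to 5.13% of the H3K18la base pairs lay inside H3K27me3 peaks over the 16 pairs (mean 3.57%), and 0.914 to 3.13% of the H3K27me3 base pairs inside H3K18la peaks (mean 1.72%). These values were set against the share of the span that H3K27me3 covers at all. The H3K18la bases inside H3K27me3 were 1.39 ± 0.25 times that share (SD, n = 16 pairs, range 0.959 to 1.81). The few common bases were therefore not fewer, on average, than the cover of the whole span by each mark gives. That span takes in 882 Mb farther than 500 kb from any H3K27me3 region called in all 4 lists. There H3K18la cover was 0.287 times its share of the span. The ratio is thus no comparison with neighbouring sequence, and its 16 pairs reuse the same libraries.

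Beside the marks of active chromatin, in contrasts chosen after seeing the data, 12.7% ± 1.03 of H3K4me3 peaks met an H3K27me3 peak (H3K4me3 marks active promoters), and 4.97% ± 1.93 of H3K27ac peaks did so (SD, n = 4 each). No H3K18la library reached the lowest H3K4me3 library, at 11.6%. The difference of H3K18la minus H3K4me3 was -8.10 percentage points, with an exact two-sided permutation p of 0.0286, the smallest that 4 against 4 libraries can give. Adjusted over the 6 contrasts of this kind it was 0.0571 and did not pass 0.05. H3K18la minus H3K27ac was -0.349 points, less than the spread of the H3K27ac libraries (exact permutation p = 0.857, adjusted p = 0.857). The H3K27ac libraries ran from 3.36 to 7.78%. Their list of 4 dpi replicate 1 covered 7.71% of the span, against 1.42 to 2.46% in the others. No contrast was run without that list. In base pairs, H3K18la was again below H3K4me3, with 3.57% of H3K18la bases against 10.5% ± 0.75 of H3K4me3 bases inside H3K27me3 (exact permutation p = 0.0286, adjusted p = 0.0571). Its mean was above the 2.96% ± 0.73 of H3K27ac, the other way round than by peaks, and neither difference passed (exact permutation, adjusted p = 0.206 in base pairs).

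Peaks that met the other mark were compared in strength with those that did not, where strength is the percentile of a peak's total signal within its own list. H3K18la peaks that met an H3K27me3 peak of any of the 4 lists had median percentiles of 44.5, 48.3, 46.2 and 47.9, against 50.5, 50.2, 50.2 and 50.1 for the rest. They were lower in 4 of 4 libraries, with a mean difference of -3.52 ± 1.89 percentile points. The exact sign-flip test gave p = 0.125, the smallest possible for 4 libraries. H3K27me3 peaks that met H3K18la went the other way, with median percentiles of 52.0, 58.0, 58.6 and 57.9 against 49.7, 49.2, 49.0 and 49.0 for the rest. They were higher in 4 of 4 libraries, by 7.37 ± 3.43 points (exact sign-flip p = 0.125). By maximum signal the H3K27me3 difference was 17.2 ± 3.67 points, again in 4 of 4 libraries (exact sign-flip p = 0.125), and the H3K18la difference was -2.46 ± 2.74 points with 1 of 4 libraries above 0 (exact sign-flip p = 0.25).

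In 4 equal classes of strength, 5.01%, 4.76%, 4.16% and 4.54% of H3K18la peaks met H3K27me3 from the weakest to the strongest class, with SDs of 0.79, 0.65, 0.61 and 0.23. The ranges of the libraries overlapped between all 4 classes. For H3K27me3 the shares were 4.78%, 5.49%, 5.81% and 7.69%, with SDs of 1.11, 1.07, 0.57 and 0.96. The strongest class of the H3K27me3 peaks had 6.53% in its lowest library, above the 6.36% of the highest library of the class below it but under the 6.73% of the highest library of the second weakest class. Width moved with meeting as well. H3K27me3 peaks that met H3K18la had a median width of 3848 ± 676 bp against 3419 ± 350 bp for the rest, and were wider in every library but 2 dpi replicate 1 (2834 against 2932 bp). H3K18la peaks that met H3K27me3 measured 1328 ± 83 bp against 1379 ± 83 bp. The part of width in the strength difference was not tested.

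Next, the distance from each peak to the nearest peak of the other mark was taken, edge to edge. The median H3K18la peak lay 78.7 ± 2.4 kb from the nearest H3K27me3 peak (SD, n = 4 libraries), at 75.6, 80.4, 77.8 and 80.8 kb. In the reverse direction, the median H3K27me3 peak lay 55.4 ± 3.3 kb from the nearest H3K18la peak, at 57.5, 58.9, 52.9 and 52.1 kb. The reverse distance hung on the longest H3K18la list: against it alone the medians were 31.2 to 34.8 kb, against the other 3 lists 52.5 to 72.6 kb, and without it the mean was 63.0 kb. Since a denser target list is nearer by construction, the 2 directions cannot be compared with each other. With all 8 lists cut to the length of the shortest, the distances were 85.5 kb from H3K18la to H3K27me3 and 81.8 kb from H3K27me3 to H3K18la.

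Few peaks were close neighbours. Within 10 kb of an H3K27me3 peak, overlaps included, lay 13.4% ± 1.03 of the H3K18la peaks. Of the rest, 24.5% ± 0.29 lay 10 to 50 kb away, 19.6% ± 0.41 at 50 to 100 kb, 36.7% ± 0.76 at 100 to 500 kb and 5.81% ± 0.21 farther than 500 kb. From H3K27me3 peaks, 18.5% ± 0.68 had an H3K18la peak within 10 kb, 30.0% ± 1.44 at 10 to 50 kb, 18.8% ± 0.66 at 50 to 100 kb, 28.5% ± 1.37 at 100 to 500 kb and 4.21% ± 0.72 beyond 500 kb. The first kilobase held the fewest, at 1.10% ± 0.08 of H3K18la peaks and 1.61% ± 0.24 of H3K27me3 peaks, although it is also the narrowest distance class.

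The widths of the classes were taken into account by asking which share of the bases at a given distance was covered. For this, regions called in all 4 lists of a mark were used. Merging the 4 lists gave 29837 H3K18la regions, of which 9325 (29.8 Mb) had a peak of every list, and 16871 H3K27me3 regions, of which 7515 (72.3 Mb) had a peak of every list. Inside the H3K27me3 regions, H3K18la covered 1.48% ± 0.62 of the bases (SD, n = 4), which was 1.38, 1.07, 1.23 and 1.06 times its share of the whole span. In the first kilobase outside them the ratios were 1.04, 0.851, 0.993 and 0.941. They averaged 1.36 at 1 to 5 kb, 1.33 at 5 to 10 kb and 1.53 at 10 to 50 kb, and were 1.63, 1.66, 1.67 and 1.68 at 50 to 100 kb. At 100 to 500 kb the mean ratio was 1.22 and beyond 500 kb 0.287. In each of the 4 H3K18la libraries the first kilobase was thus below both the inside and the next ring, and the interior was below the ring at 50 to 100 kb. With 4 libraries such a difference cannot reach an exact sign-flip p under 0.125.

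The reverse profile had the same shape. H3K27me3 covered 2.92% ± 0.80 of the bases inside the shared H3K18la regions, 1.29, 0.868, 1.12 and 1.24 times its share of the span. In the first kilobase the ratios were 1.01, 0.857, 0.922 and 0.939. They averaged 1.23 at 1 to 5 kb, 1.41 at 5 to 10 kb, 1.89 at 10 to 50 kb and 1.93 at 50 to 100 kb, then 1.28 at 100 to 500 kb and 0.242 beyond 500 kb. The libraries did not overlap between the first kilobase, with 1.01 at most, and the ring at 50 to 100 kb, with 1.83 at least. Peaks of the 2 marks were hence densest at 10 to 100 kb from each other, sparser at each other's edges, and sparsest in the stretches beyond 500 kb from any shared region.

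**Figure D2:**
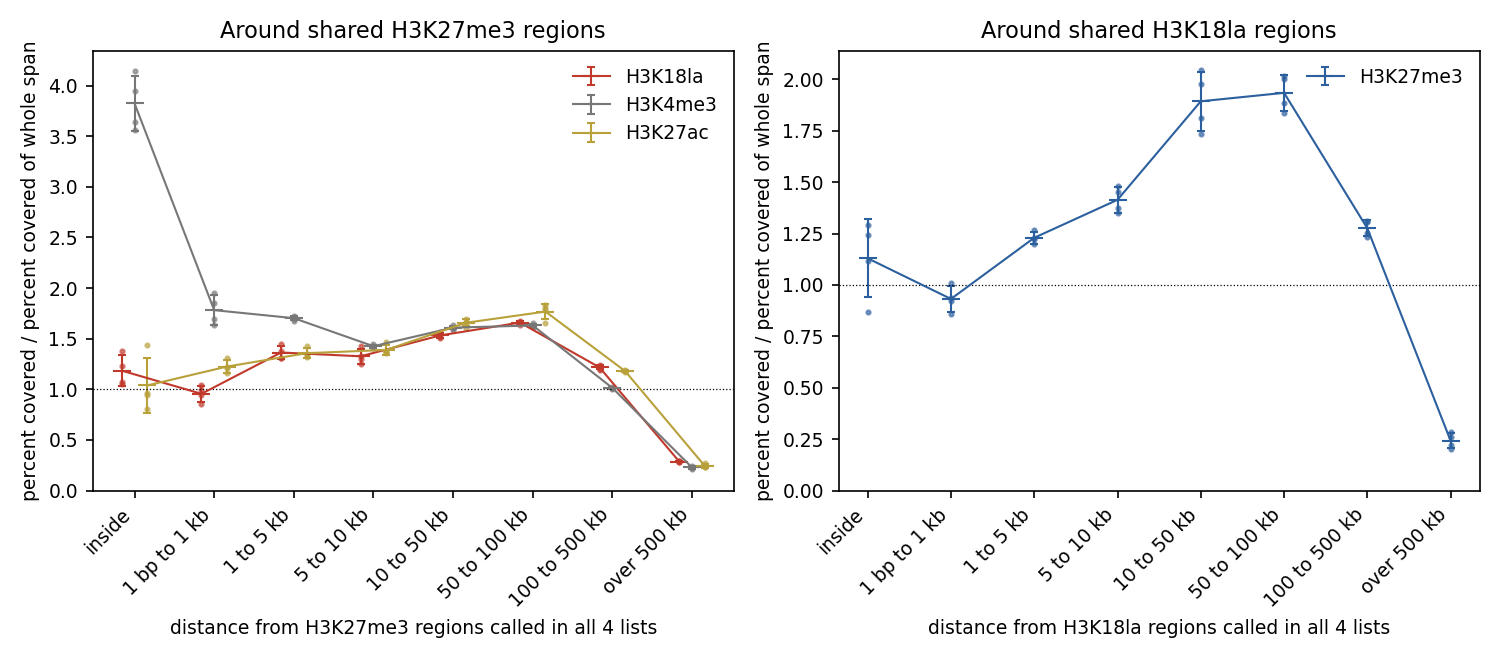
Share of bases covered by a mark, divided by its share of the whole span (y axis), inside and at rising distance from the shared regions of the other mark (x axis). Points are libraries and bars the mean and SD of 4. H3K18la is lowest near H3K27me3 in the first kilobase (mean 0.956) and highest at 50 to 100 kb (1.66), whereas H3K4me3 reaches 3.82 inside H3K27me3 regions.

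The promoter mark H3K4me3 had another profile around the same H3K27me3 regions. It covered 3.82 ± 0.27 times its share of the span inside them, 1.78 ± 0.14 times in the first kilobase and 1.63 ± 0.02 times at 50 to 100 kb (SD, n = 4). The lowest H3K4me3 library inside, at 3.56, was above the highest H3K18la library, at 1.38. H3K27ac, the mark of active promoters and enhancers, reached 1.04 ± 0.27 times inside and 1.77 ± 0.07 times at 50 to 100 kb. Inside, its libraries gave 0.944, 0.811, 1.44 and 0.963, and the lowest H3K18la library gave 1.06. Only H3K27ac 4 dpi replicate 1, the list with the widest cover, was above that, at 1.44. Meeting of the marks was also counted on a grid laid over the span. With bins of 10 kb, 6.90% ± 0.62 of the bins with an H3K18la peak centre also held an H3K27me3 peak centre, against 4.48% ± 0.59 of all bins. With bins of 100 kb these shares were 40.6% ± 0.29 and 23.6% ± 1.52, and with bins of 1 Mb 89.5% ± 1.08 and 70.9% ± 0.94. The ratio was 1.54, 1.72 and 1.26 at the 3 sizes, and the H3K18la libraries ranged from 1.24 to 1.74 over them. Because most bins of 1 Mb hold H3K27me3 in any case, the ratio has a low ceiling there. The 3 ratios can therefore not be ranked against each other.

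Then the 2 marks were compared by chromosome, as the percent of a list's peaks on each of the 19 autosomes, X and Y. The exact permutation test with Benjamini-Hochberg adjustment called 15 of 21 chromosomes, at or under an adjusted p of 0.05. The H3K18la share was higher on 8 of them, or 38.1% of those tested (chromosomes 1, 3, 10, 13, 15, 16, 17 and Y), and the H3K27me3 share on 7, or 33.3% (chromosomes 2, 4, 6, 7, 9, 11 and 19). Each called chromosome had non-overlapping libraries and the smallest possible p of 0.0286 (exact permutation, adjusted p = 0.04). The calls on chromosomes 2, 11, 13 and 15 were lost when 1 library was left out, with adjusted p of 0.0706 to 0.08 (exact permutation): chromosome 2 without any one H3K18la library, chromosome 13 without any one H3K27me3 library, chromosome 11 without either 2 dpi or the second 4 dpi H3K18la library, and chromosome 15 without either 4 dpi H3K18la library. Taking libraries of the same time point and number as pairs called 0 chromosomes, since 4 pairs cannot give an exact sign-flip p under 0.125. Shares of a list sum to the whole, so that a gain on 1 chromosome lowers the others.

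The largest difference was on chromosome 10, which held 5.95%, 6.50%, 6.23% and 6.23% of the H3K18la peaks against 4.23%, 4.11%, 4.27% and 4.17% of the H3K27me3 peaks. The H3K18la share was 1.48 times the H3K27me3 share. In peaks per Mb, chromosome 10 carried 9.21 ± 2.49 for H3K18la, near the 9.41 of chromosome 19 and the 9.75 of chromosome 11, but only 4.44 ± 0.54 for H3K27me3, near the lowest autosomes. Chromosome 1 followed, with 7.37%, 7.62%, 7.24% and 7.32% for H3K18la against 6.21%, 6.05%, 6.47% and 6.30% for H3K27me3.

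In the other direction, chromosome 4 held 5.57%, 5.42%, 5.78% and 5.60% of the H3K18la peaks and 7.25%, 7.20%, 6.46% and 6.73% of the H3K27me3 peaks, a difference of -1.31 points. Chromosome 7 differed by -1.06 points, chromosome 11 by -1.03 and chromosome 9 by -0.997. Chromosome 11 was dense in both marks, with 9.75 ± 2.82 H3K18la peaks and 8.14 ± 1.22 H3K27me3 peaks per Mb, the highest of all chromosomes for each. On chromosomes 5, 8 and 18 the marks differed by at most 0.073 points in size, and none of these passed (exact permutation, adjusted p = 0.442, 0.87 and 0.971).

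The sex chromosomes were poor in both marks. On X, present as a single copy in male cells, H3K18la had 417, 169, 167 and 221 peaks, or 1.49 ± 0.72 per Mb, and H3K27me3 207, 198, 214 and 191 peaks, or 1.24 ± 0.06 per Mb. As a share of the list, X held 1.24% ± 0.20 of H3K18la and 1.52% ± 0.19 of H3K27me3 peaks, a difference of -0.278 points that did not pass (exact permutation p = 0.114, adjusted p = 0.152 over 4 contrasts). With lists cut to equal length the difference was -0.487 points and passed (exact permutation, adjusted p = 0.0381). On Y there were 23, 9, 8 and 8 H3K18la peaks and 1, 1, 2 and 3 H3K27me3 peaks. The call on Y therefore rests on a handful of peaks per list.

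**Figure D3:**
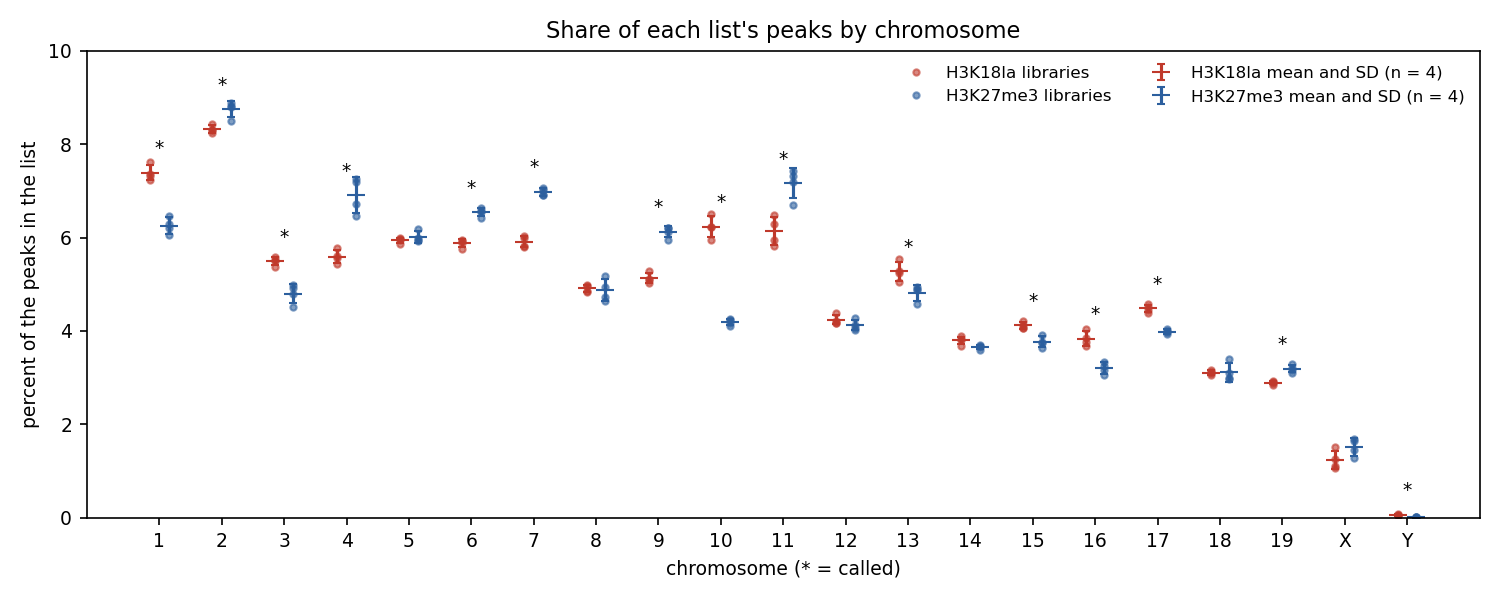
Percent of each list's peaks (y axis) on each chromosome (x axis), with H3K18la to the left of H3K27me3; points are libraries, bars the mean and SD of 4, and stars chromosomes past an adjusted p of 0.05. Chromosome 10 stands out with 5.95 to 6.50% for H3K18la and 4.11 to 4.27% for H3K27me3.

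Along the chromosomes, 4 measures of spacing were compared, and none passed after adjustment. The median gap between neighbouring peaks was 15.4 ± 3.5 kb for H3K18la and 22.4 ± 5.5 kb for H3K27me3 (SD, n = 4 each; exact permutation p = 0.0857, adjusted p = 0.152). With the stronger 50% of each list the difference was -49.8 kb, against -7.04 kb with all peaks, and did not pass either (exact permutation, adjusted p = 0.0571). Of the 2213 bins of 1 Mb with a peak in any of the 16 lists, 17.4% ± 4.4 had no H3K18la peak and 14.5% ± 1.1 no H3K27me3 peak (exact permutation p = 0.257, adjusted p = 0.257). The densest 10% of the bins held 31.9% ± 1.9 of the H3K18la peaks and 34.5% ± 0.6 of the H3K27me3 peaks. The libraries of the marks did not overlap in this measure (exact permutation p = 0.0286), but it did not pass after adjustment over the 4 contrasts (adjusted p = 0.114). With lists cut to equal length, the gap (-4.48 kb) and the percent of bins without a peak (7.49 points) passed (exact permutation, adjusted p = 0.0381 for both), whereas the difference in the densest 10% shrank to -0.713 points, against -2.65 with all peaks (exact permutation, adjusted p = 0.229), and with the stronger 50% it was -0.659 points (adjusted p = 0.8286). Without H3K18la 2 dpi replicate 1, the difference in bins without a peak was 5.01 points, against 2.88 with it, and that in the densest 10% -1.71 points (exact permutation, adjusted p = 0.0571 for both). List length is a trait of the library, so these measures were sensitive to it.

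Most bins of 1 Mb held both marks, as bins of this size mostly hold each mark on its own. Both marks had a peak in every one of their lists in 1468 of the 2213 bins (66.3%). H3K18la was in all 4 lists and H3K27me3 in none in 99 bins, and H3K27me3 in all 4 and H3K18la in none in 130 bins. Across the bins, the mean shares of the marks had a Spearman rho of 0.533 and a Pearson r of 0.405 (n = 2213 bins, which share gene density, base composition and mappability). The rho of the 16 pairs of lists was 0.438 to 0.581, while pairs within H3K18la gave 0.942 to 0.960 and pairs within H3K27me3 0.932 to 0.964. Of the 221 bins in the densest 10% of a mark, 47 (21.3%) were in the densest 10% of both, against 10% of all bins.

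Bin by bin, the share of the list was tested with limma on log2 values in the 1896 bins with a mean of at least 1 peak. The H3K18la share was higher in 655 bins (34.5%) and the H3K27me3 share in 715 (37.7%), at a Benjamini-Hochberg adjusted p under 0.05, and 526 were not called. The libraries did not overlap in 602 of the 655 and 641 of the 715. A call with 4 against 4 libraries favours separated libraries, so these counts add no support to the calls. The share over all 1896 tested bins is not given here. The median log2 difference was 1.51 in the first group and -1.55 in the second. Chromosomes 16 and 10 had the largest shares of bins with more H3K18la among the autosomes, with 45.6% and 45.4% of their tested bins, and chromosome 4 the largest share of bins with more H3K27me3, with 50.9%. The difference between the marks was not called to differ between 2 and 4 dpi in any bin (limma interaction term, 0 bins, lowest adjusted p = 0.121). Of the 1896 tested bins, 167 had an unadjusted p under 0.05, a cut that some bins pass without any difference. With 2 libraries per mark and time point, the lack of calls does not show that the difference was the same at both times.

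**Figure D4:**
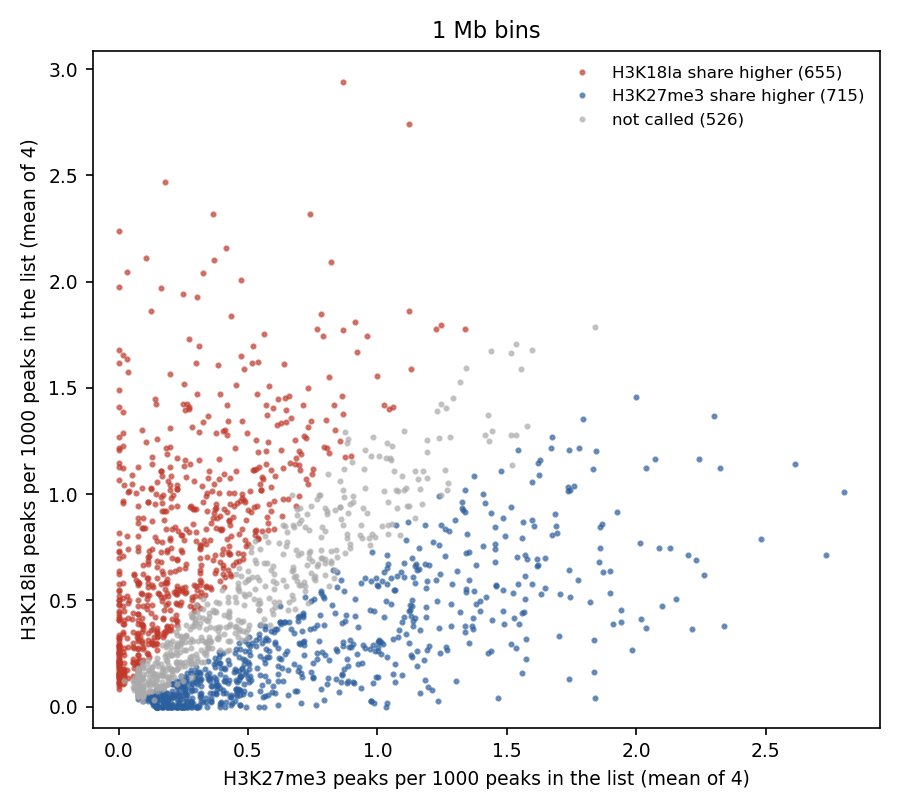
Each point is a 1 Mb bin, with H3K27me3 peaks (x axis) and H3K18la peaks (y axis) per 1000 peaks of the list, as means of 4 libraries. The 655 bins with a higher H3K18la share and the 715 with a higher H3K27me3 share spread along the 2 axes, and 526 bins between them were not called.

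The bins with the largest H3K18la excess held many H3K18la peaks and no or nearly no H3K27me3 peak. Chromosome 10 from 96000001 to 97000000 held 52, 36, 34 and 44 H3K18la peaks and 0 H3K27me3 peaks in each list. Chromosome 13 from 37000001 to 38000000 held 43, 37, 28 and 37 H3K18la peaks and chromosome 19 from 21000001 to 22000000 held 41, 30, 25 and 29, again with 0 for H3K27me3 in all 4 lists. Another 5 of the first 10 also had no H3K27me3 peak in any list: chromosome 4 from 144000001, chromosome 13 from 5000001, chromosome 11 from 86000001, chromosome 5 from 3000001 and chromosome 8 from 83000001, with 18 to 37 H3K18la peaks per list. In the last 2, chromosome 7 from 80000001 held 46, 34, 38 and 32 H3K18la peaks against 0, 0, 0 and 2 of H3K27me3, and chromosome 19 from 32000001 held 42, 27, 24 and 31 against 0, 0, 1 and 0. The fitted fold of a bin with 0 or few peaks of a mark depends on the pseudocount and is therefore not given.

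The bins with the largest H3K27me3 excess held fewer peaks of their mark. Chromosome 5 from 81000001 to 82000000 held 0 H3K18la peaks in each list and 15, 13, 14 and 13 H3K27me3 peaks. Chromosome 8 from 88000001 to 89000000 likewise held 0 against 7, 8, 8 and 7. Chromosome 19 from 25000001 to 26000000 had the most H3K27me3 peaks among these bins, with 1, 0, 1 and 1 of H3K18la against 25, 25, 25 and 23. Chromosome 2 from 74000001 to 75000000 held 3, 0, 0 and 0 H3K18la peaks against 16, 16, 17 and 17, and chromosome 6 from 94000001 to 95000000 held 3, 0, 0 and 1 against 23, 18, 19 and 18. The other 5 were chromosome 12 from 109000001, X from 132000001, chromosome 13 from 103000001, chromosome 14 from 119000001 and chromosome 18 from 76000001, with 0 to 3 H3K18la and 8 to 17 H3K27me3 peaks per list. Where H3K18la was called in these bins, it was mostly in 2 dpi replicate 1, the longest list.

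The single regions farthest from the other mark were listed as well. Apart from chromosome Y, where 3 shared H3K18la regions between 1009761 and 1286820 lay 89462 to 89737 kb from the nearest H3K27me3 peak, the most remote shared H3K18la regions were on X, from 128650891 to 128652953 and from 116677052 to 116681314, at 3929 and 3878 kb. The first had H3K4me3 in 4 lists and H3K27ac in 4 lists, and the second H3K4me3 in 0 and H3K27ac in 2 lists. The most remote shared H3K27me3 region was also on X, from 120562194 to 120567131, at 3881 kb from any H3K18la peak. That distance reaches to the end of the second H3K18la region on X, at 116681314, so these regions border the same stretch. The other 4 H3K27me3 regions lay side by side on chromosome 5 between 81200578 and 81297183, within the bin named above, at 3581 to 3673 kb. They included a domain of 66.4 kb from 81207620 to 81274060 that ranked at percentiles 98.9, 99.7, 99.8 and 94.7 of the H3K27me3 lists.

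Finally, the places called in both marks were listed. A shared H3K18la region overlapped a shared H3K27me3 region in 354 places, which involved 346 of the 9325 H3K18la regions (3.71%) and 313 of the 7515 H3K27me3 regions (4.17%). The median overlap was 1980 bp and the sum 800 kb. A peak of every one of the 8 lists touched the overlap itself in 252 places, and at least 1 base was called in all 8 lists in 234. Such bases made up 249 stretches with a median of 943 bp, the longest of 5.64 kb, and 263 kb in all. Leaving out each library in turn gave 333 to 442 places, and keeping the stronger 50% of each list by total signal gave 114.

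Most of the H3K18la regions in question sat within a wider H3K27me3 domain. Of the 346, 190 (54.9%) lay wholly inside an H3K27me3 region and 156 reached over its edge, while 24 of the 313 H3K27me3 regions (7.67%) lay wholly inside an H3K18la region. H3K18la regions in these places had a median width of 2.45 kb against 2.65 kb elsewhere, and H3K27me3 regions 8.40 kb against 7.05 kb. Longer H3K27me3 domains more often held H3K18la. The share was 3.30% of 2000 regions under 5 kb, 3.40% of 3294 at 5 to 10 kb, 4.61% of 1628 at 10 to 20 kb, 8.98% of 490 at 20 to 40 kb and 15.5% of 103 at 40 kb or more. The H3K18la cover per base did not rise with it, at 2.15% ± 0.74, 1.47% ± 0.58, 1.25% ± 0.56, 1.48% ± 0.72 and 1.48% ± 0.69 in the same order (SD, n = 4). Without touching, 47 shared H3K18la regions had a shared H3K27me3 region within 10 kb on both sides and 500 on 1 side.

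The other 2 marks were read at these regions, without a test. Of the 346 H3K18la regions that met H3K27me3, 186 (53.8%) met an H3K4me3 region called in all 4 lists and 232 (67.1%) such an H3K27ac region, against 47.0% and 85.6% of the 8979 other H3K18la regions. Neither mark was there in 94 of the 346 (27.2%), against 13.3% of the rest. Of the 313 H3K27me3 regions, 58.5% met H3K4me3 and 70.0% met H3K27ac, against 16.4% and 6.47% of the 7202 other H3K27me3 regions. Meeting H3K18la chose these regions, and 47.0% of the other H3K18la regions met H3K4me3 and 85.6% H3K27ac. Neither of these 2 pairs of shares is therefore an independent observation. By chromosome, chromosome 2 had the most places (37), chromosome 17 the largest share among the autosomes, with 28 of 429 H3K18la regions (6.53%), and chromosome 5 the smallest, with 5 of 569 (0.879%).

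The 20 places whose lowest percentile over the 8 lists was highest were split at percentile 75, a line drawn after seeing their values. In 9 of them, every one of the 16 lists, H3K4me3 and H3K27ac included, had a peak above percentile 75. These were mostly short, and in 8 of the 9 the H3K27me3 region measured less than 10 kb. The first was on chromosome 2 from 98496582 to 98497678, at percentile 100 in each H3K18la list and at 99.9 or more in each H3K27me3 list. It also ranked at 100 in every H3K4me3 and every H3K27ac list. A total of 3 of the 20 places lay within 10 kb there, the other two from 98492577 to 98493324 and from 98495222 to 98495567.

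Chromosome 9 from 124254050 to 124259700 held the longest stretch called in all 8 lists. Its percentiles were above 99.9 in each H3K18la list, and 99.1, 95.7, 97.8 and 99.4 in the H3K27me3 lists. Chromosome 17 from 40153888 to 40159720 ranked at 99.8, 95.6, 99.3 and 98.9 in H3K18la and at 100.0, 99.4, 99.0 and 99.4 in H3K27me3. Both were above percentile 95 in all 16 lists, like the first place on chromosome 2. The other high places in all marks were 2 stretches of 260 and 250 bp on chromosome 12 from 3159867 and chromosome 6 from 103626006, chromosome 2 from 57004897 to 57008076, and X from 168773887 to 168780061. The last lay in an H3K18la region of 23.6 kb, with H3K18la percentiles above 99.9 in each list and H3K27me3 percentiles of 91.3, 78.0, 87.2 and 93.8. Such a place is high with 4 antibodies of different targets, and whether the signal there follows the antibody was not tested.

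In the other 11 places, H3K18la and H3K27me3 ranked high because the places were chosen by these lists. The percentile is that of the whole peak, so in a long domain it does not measure H3K27me3 at the overlap itself. Places with every H3K4me3 and H3K27ac list above the dividing line had been set apart. Lower H3K4me3 percentiles among the 11 therefore partly follow from the split. One of the 11 places had no H3K4me3 peak. In the rest the mean H3K4me3 percentile ran from 3.98 to 92.2 with a median of 40.3, highest on chromosomes 2 (92.2) and 10 (88.4). H3K27me3 regions measured 8.68 to 113 kb, and 10 of the 11 were at least 10 kb long. On chromosome 14, H3K18la from 70291210 to 70296333 lay inside an H3K27me3 domain of 113 kb, from 70221093 to 70334586, the longest with H3K18la inside. The peaks over the overlap ranked at 94.1, 89.3, 88.6 and 92.4 in the H3K18la lists and at 94.7, 99.7, 99.9 and 99.9 in the H3K27me3 lists. H3K4me3 averaged 56.1 there and H3K27ac 79.3. That domain held 3 shared H3K18la regions, which overlapped 9.79 kb or 8.63% of it.

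Chromosome 11 from 51805957 to 51810585 showed the same arrangement in a domain of 63.6 kb, with 94.8, 93.9, 94.3 and 84.1 for H3K18la, 99.8, 99.9, 99.8 and 99.9 for H3K27me3, and a mean of 47.1 for H3K4me3. Chromosome 18 from 65825912 to 65832988 lay in a domain of 44.8 kb, with 89.5, 91.3, 96.0 and 95.9 for H3K18la and 98.0, 95.1, 94.2 and 94.3 for H3K27me3. Its H3K4me3 peaks averaged percentile 32.2. Chromosome 7 from 43129214 to 43133097, in a domain of 33.9 kb, had 95.01, 93.8, 94.8 and 87.3 for H3K18la and 95.6, 93.3, 94.2 and 98.8 for H3K27me3, with H3K4me3 in only 1 of its 4 lists at percentile 3.98. Chromosome 1 from 184204800 to 184207120 had H3K4me3 in 0 lists and H3K27ac in 4, with H3K18la at 91.4, 87.6, 83.7 and 85.8 and H3K27me3 at 93.9, 95.4, 92.0 and 96.8. The remaining 6 were on chromosomes 8, 6, 1, 2, 10 and 17, with starts at 114379595, 89396782, 87110179, 101624944, 87691922 and 56778670.

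**Figure D5:**
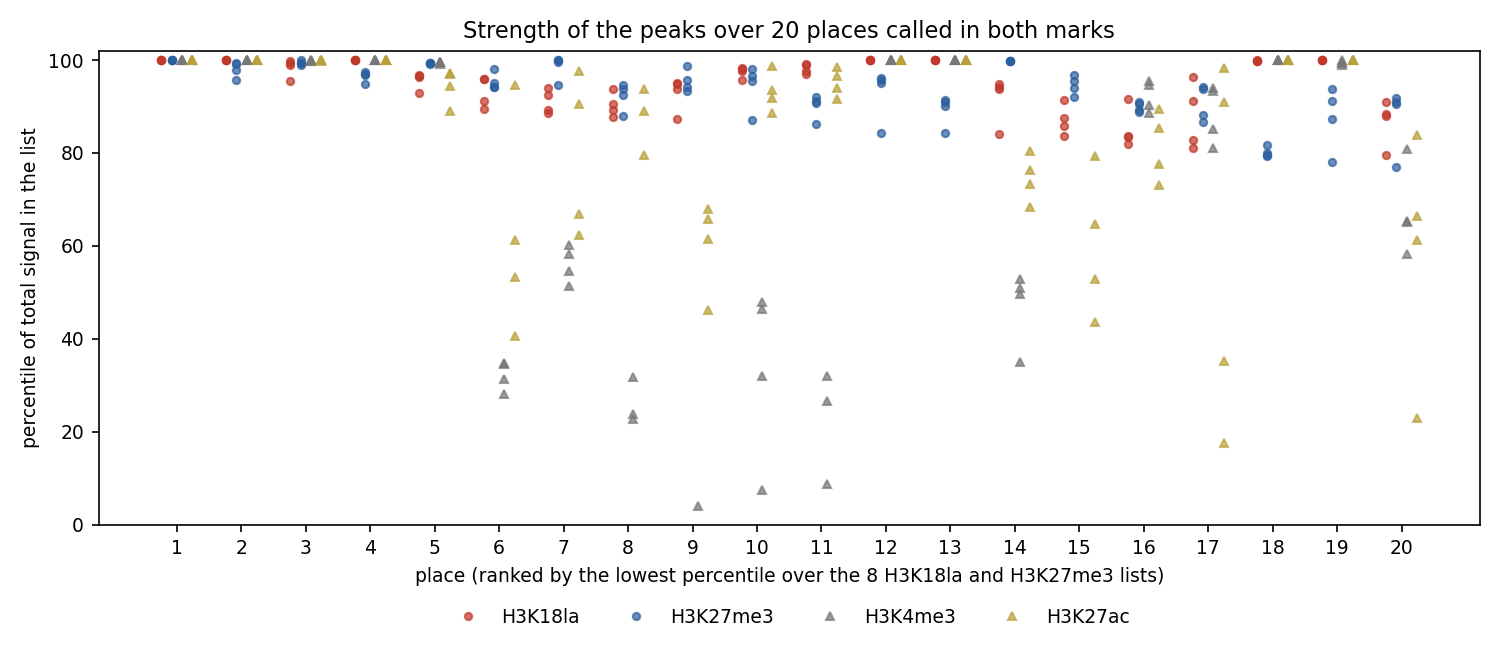
Percentile of total signal within each list (y axis) of the peaks over the 20 places, ranked on the x axis; each point is a library. H3K18la and H3K27me3 stay at 77.1 or above because the places were chosen by these 8 lists. Over all 252 places touched by the 8 lists, the median of the lowest percentile was 31.4. H3K4me3 was not used in the ranking. It drops to 3.98 at the lowest and has no point where a list had no peak.

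Among the longest H3K27me3 domains with H3K18la inside, that of chromosome 17 from 12916770 to 13010237 (93.5 kb) held the most H3K18la. There, 3 shared H3K18la regions overlapped 16.3 kb, or 17.4% of the domain. H3K18la ranked at 99.8, 99.6, 99.7 and 99.7 and H3K27me3 at 84.2, 97.9, 98.9 and 99.4, with H3K27me3 lowest in 2 dpi replicate 1. No base of the strongest H3K18la region there, from 12971380 to 12980125, was called in all 8 lists, since H3K27me3 2 dpi replicate 1 had no peak over it. The domain of chromosome 17 from 35621629 to 35681828 (60.2 kb) held 1 H3K18la region over 2.81% of its length, at percentiles 61.6, 14.6, 58.1 and 62.0. That of chromosome 10 from 84585330 to 84644158 (58.8 kb) held 1 over 2.35%, at 61.2, 42.6, 45.3 and 5.52. In these last 2 domains, H3K27me3 ranked at 99.3 or above in every list, and H3K18la was of middle or low rank.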

How the data were processed

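Peaks of 8 CUT&Tag libraries, 4 of H3K18la and 4 of H3K27me3, were analysed, and those of the 8 H3K4me3 and H3K27ac libraries were read beside them. The submitters' processing notes name Trim Galore 0.6.6, Bowtie2 2.4.4, SAMtools 1.13 and bedtools 2.30 for the reads, and SEACR 1.3 called peaks in each library on its own. The deposited signal values, the summed and the maximum coverage of a peak, were made by the authors without normalization between libraries, so they were used only as percentiles within a list. Depth is unknown. Without a control, SEACR keeps the blocks of highest signal of a library, so list length can move with depth and background. The methods name a removal of peaks over blacklisted regions, which was not checked for these lists.

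Coordinates are those of GRCm39, as the labels give (the methods name mm10), printed 1-based, on chromosomes 1 to 19, X and Y. The 10 to 50 peaks per list on other sequences were left out. The annotation and sequences at hand were of GRCm38, so no gene, promoter or sequence is given, and the planned promoter and gene-list comparisons were not run. For H3K27me3 at 4 dpi, list names number the replicates the other way round, and the labels were followed.

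Overlap needed 1 bp. The span runs from the first to the last peak of a chromosome over all 16 lists. Values per library were compared by exact two-sided permutation tests of the difference of means, Benjamini-Hochberg adjusted within each family. Bins of 1 Mb were tested with limma 3.58.1 (trend and robust options, R 4.3.3) on log2((peaks + 0.5) / peaks in the list), and the fit was tested on simulated data. Named were the 10 called bins at each end without overlap of the libraries, the 20 places with the highest lowest percentile over the 8 lists, the 5 longest H3K27me3 regions with H3K18la inside and the 5 regions of each mark farthest from the other. Peaks of all 8 lists had to touch a ranked place. Comparisons with H3K4me3 and H3K27ac, distance rings, width and strength classes, the grid and the mark by time term were chosen after seeing the data. The members and lists were chosen with earlier results of these data known.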

Additional observations from a re-analysis of the deposited data

How the results depend on the processing

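Values moved with the length of the lists. With the stronger 50% of each list by total signal, the Jaccard index was 0.0061, the share of H3K18la peaks that met H3K27me3 2.56%, the reverse share 3.28%, the median distances 137 kb and 114 kb, and the places 114. By maximum signal these were 0.0073, 3.48%, 4.66%, 135 kb, 112 kb and 104. With lists of equal length the shares were 4.01% and 3.79%, the distances 85.5 and 81.8 kb, the places 233, and the differences in gap (-4.48 kb), in percent on X (-0.487) and in bins without a peak (7.49) passed the threshold. Against regions called in all 4 lists, an alternative chosen after seeing the data, the shares were 3.91% and 3.18%. Bins of 2 Mb gave 400 and 401 calls for higher H3K18la and H3K27me3 shares, and bins of 0.5 Mb 1058 and 1181. The number of bins tested differs with bin size and is not given here for these 2 sizes. These counts can therefore not be compared with the 34.5% and 37.7% of tested bins called at 1 Mb. Leaving out each library gave ranges of 0.0098 to 0.0124 (Jaccard), 4.30 to 5.06% and 4.82 to 6.48% (shares), 75.2 to 81.9 and 50.7 to 63.0 kb (distances), 333 to 442 places, 12 to 15 chromosomes, and 616 to 651 and 669 to 718 bins.

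Over the bins, libraries of the 2 marks with the same time point and number deviated together weakly at most (r = 0.0928, 0.0266, 0.0033 and 0.0798). All other pairs of lists across the marks gave r of -0.0695 to 0.0434, below the first and the last of these values. Sharing of samples between equal numbers therefore remains possible, although the main tests did not take the numbers as pairs. The study made the marks from the same samples, but which numbers share cells is not given in the sources used here. With the replicate block, 660 and 718 bins were called (662 and 718 with the 4 dpi H3K27me3 numbers as in the list names), and 0 chromosomes, because a sign-flip permutation over 4 pairs cannot give a p under 0.125. The replicate block left the differences of -7.04 kb, -0.278, 2.88 and -2.65 points as they were, with adjusted p = 0.25 each (exact sign-flip). Without H3K18la 4 dpi replicate 2, and with the stronger 50% by total signal, the 12 called chromosomes lay exactly at an adjusted p of 0.05 (exact permutation) and would be lost under a strict threshold. With the stronger 50%, chromosomes 2, 6, 13, 15 and 19 lost their call and 8 and X gained one, chromosome 8 with the direction turned (-0.203 points, against 0.034 with all peaks). With equal length, 2 and 15 lost theirs and X gained one. Chromosome 14 gained a call without H3K18la 4 dpi replicate 1 (exact permutation, adjusted p = 0.0429, against 0.075) and chromosome 12 without H3K27me3 2 dpi replicate 1 (0.04, against 0.2). Promoter results and their alternatives were not run for want of an annotation of this build. Depth limits all shares by an unknown amount.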
